A study of Mus musculus with 6 samples.

Results

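The constitutive proteasome genes were examined in primary mouse hepatocytes depleted of RetSat, a retinol saturase. The genes were taken by symbol, as every measured gene named Psma, Psmb, Psmc, Psmd, Psme, Psmf or Psmg with a number, without the interferon-inducible Psmb8, Psmb9, Psmb10, Psme1 and Psme2. This gave 43 of the 19938 genes tested, each read from its brightest probe set on Affymetrix Mouse Gene 1.0 ST arrays. The rule uses the symbol and the mean signal only, although the members were chosen with earlier results of these data known. Hepatocytes of 1 male wild-type C57BL/6J mouse, 10 weeks of age by the labels, were plated in 25 mM glucose and transfected overnight with control siRNA (siControl, 3 arrays) or with siRNA against RetSat (siRetSat, 3 arrays). The medium was renewed the next morning, and RNA was collected after 48 h of depletion by the study's account. Both groups therefore carried siRNA and the same lipid transfection reagent, and no array held untransfected cells. Since all cells came from 1 animal, the p-values measure the spread between transfections and not between mice. The labels do not say whether the siRNA was 1 sequence or a pool.

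The proteasome is the protease that degrades most ubiquitin-tagged proteins of the cytosol and nucleus. Its 20S core is a barrel of stacked rings, in which the alpha subunits form the outer gates and the beta subunits carry the active sites inside. The 19S particle caps the barrel, with ATPases that unfold substrates and a lid that removes ubiquitin. Interferons replace the constitutive active subunits by inducible ones, which gives the immunoproteasome, and the transcription factor NRF1 raises the constitutive genes together when proteasome activity is blocked.

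All values are log2 intensities as deposited, and differences are siRetSat minus siControl on that scale. The target itself fell. Retsat was at 6.80, 7.04 and 7.01 in the siControl arrays and at 4.62, 4.83 and 4.81 in the siRetSat arrays, a difference of -2.20 (SE 0.105, limma adjusted p = 0.000112) that left 21.8% of the control level. Of the 10 hepatocyte markers listed 9 were measured, and Alb, Ttr, Trf and Fgb were among the bright probe sets with siControl means of 13.0, 11.7, 12.8 and 12.3. Tat (-0.72) and Fgb (-0.42) fell at an adjusted p under 0.05 by limma, a call that each kept in 1 of the 6 fits with 1 array left out (without siControl 1). Of 14 macrophage markers 10 were dim, meaning at or below the 40th percentile of gene means, a log2 value of 4.33, while Cd14 rose by 0.59, Cd68 differed by 0.40 (adjusted p = 0.056) and the median of the list was 0.03. The call of Cd14 held in 2 of the 6 fits with 1 array left out, those without siControl 3 or siRetSat 1. In bulk RNA, fewer cells of a type and less RNA per cell cannot be told apart, and a change shared by all transcripts is removed by the authors' normalization.

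Across the 43 constitutive proteasome genes, mRNA levels differed little between siControl and siRetSat hepatocytes. By limma with Benjamini-Hochberg adjustment over all genes, 0 members rose, where 1.91% of all genes tested did, and 0 fell, where 1.66% did. The smallest adjusted p of a member was 0.104, for Psmg4. At an unadjusted p under 0.05 there were 3 members, Psmg4, Psme4 and Psmd12, beside 14.5% of all genes. At the cutoffs of the study, an unadjusted p under 0.05 with a rise of at least 25% or the reciprocal fall, there was 1 member higher (Psmg4), against 4.47% of all genes, and 0 lower, against 4.58%. Without siControl 2, Psme4 met these cutoffs in place of Psmg4, and without siRetSat 3 Psmc6 met them on the lower side. After adjustment the methods' t-test called 1 member, Psmd12 (lower), where it called 0.983% of all genes. At an unadjusted p under 0.05 that test had 5 members, and its share of all genes at that threshold is not given here. Psmd12 also passed on the lower side with a variance trend, which called 5.41% of all genes, and after background subtraction, which called 2.23%. With array weights, 5 members (Psma4, Psmd10, Psme4, Psmg3 and Psmg4) passed on the higher side and Psmd12 on the lower, 14.0% of the members beside 14.6% of all genes in that fit.

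The estimates lay close to 0 on both sides. The log2 fold change was above 0 for 27 members and below 0 for 16. Its median was 0.04 over the members and 0.00 over all genes, with a range from -0.24 for Psmc6 to 0.41 for Psmg4. The median absolute log2 fold change was 0.09, beside 0.10 over all genes and 0.13 over the 11960 genes that were not dim. A difference at or past the fold cutoff of the study, a rise of 25% or the reciprocal fall, was measured for 1 member (2.33%) and for 10.1% of all genes.

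How large a change these arrays could have missed is given by the moderated 95% intervals. The interval lay wholly inside a 1.5-fold change in either direction for 42 of 43 members (97.7%), against 85.9% of all genes and 80.8% of the genes that were not dim. The exception was Psmg4, whose interval ran from 0.15 to 0.66. Inside the study's fold cutoff lay 23 members (53.5%) and 32.6% of all genes, so changes of that size are not bounded for the other 20. The members were also measured with a smaller spread. The median SD between arrays of a group was 0.089 for the members and 0.132 for the genes that were not dim, and the intervals reached a median of 0.21 to either side of the estimate for the members and 0.26 for all genes.

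**Figure D1:**
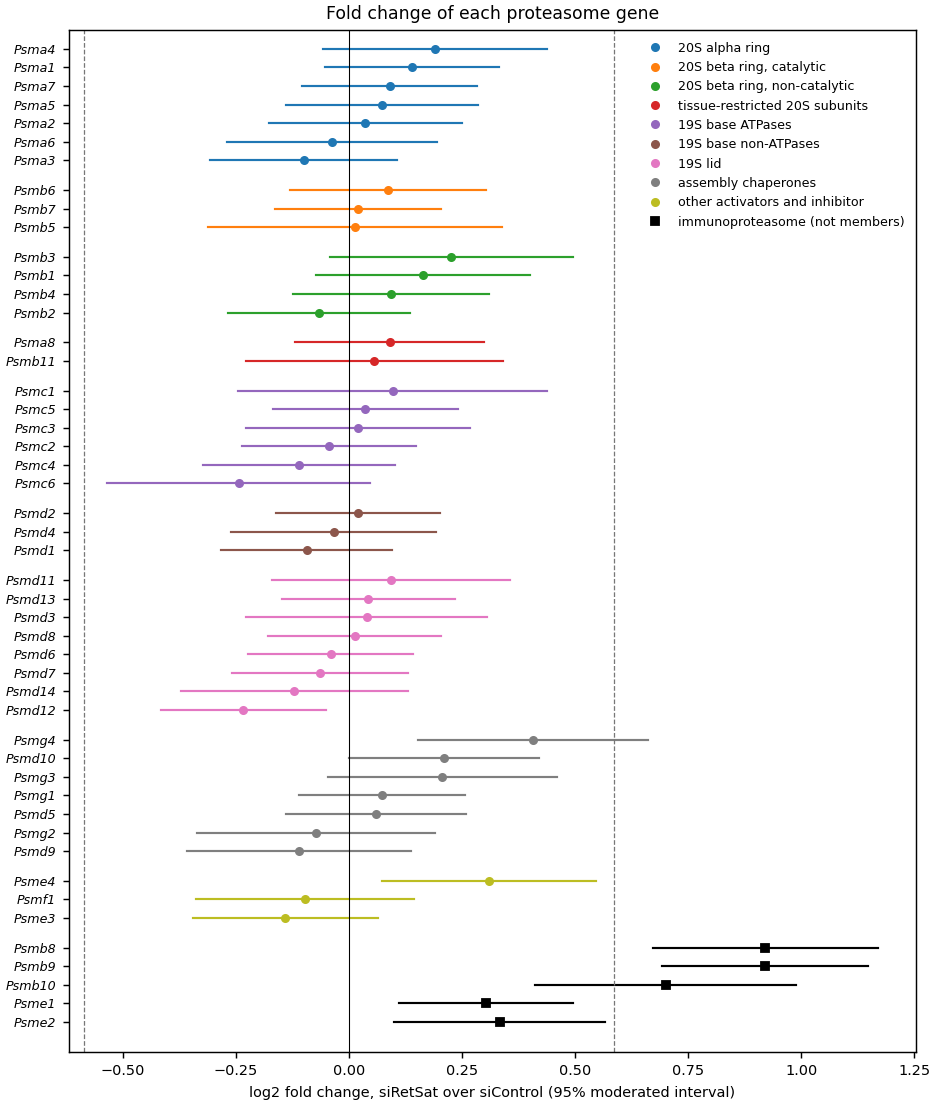
Log2 fold change (x axis, siRetSat over siControl) of each of the 43 constitutive proteasome genes by role, with the 5 immunoproteasome genes as black squares. Bars are limma's moderated 95% intervals and dashed lines mark a 1.5-fold change, inside which every member's interval lies except that of Psmg4, while Psmb8 and Psmb9 lie wholly outside it.

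Promoter sequence was compared as well, because the constitutive genes are known to be regulated together. RefSeq windows on GRCm38.p6, of 250 bases before to 50 bases after the start, were found for 35 of the 43 members (37 windows) and searched on both strands for 9 motifs. The share of windows with a motif is given for the members and then for all 19177 windows of genes tested. The core of the antioxidant response element, TGACNNNGC, the element that NRF1 and NRF2 bind, was in 16.2% against 13.2%. The members that held it were Psmb5, Psmb6, Psmc6, Psmd9, Psmd12 and Psme4, with a median log2 fold change of -0.05. The ETS motif CCGGAAG was in 40.5% against 12.1%, in 14 members with a median of -0.01. The element of nuclear respiratory factors, GCGCANGCG, was in 18.9% against 9.25%, and the YY1 element AAGATGGCG in 5.41% against 1.93%. The core of the interferon-stimulated response element, GAAANNGAA, was in 16.2% against 7.84%. The 6 members that held it were Psmb3, Psmb4, Psmc2, Psmd4, Psmd9 and Psmg4, with a median of 0.03. The gamma-activated site TTCNNNGAA was in 5.41% against 7.66%, in the 2 members Psmd2 and Psmg1 with a median of 0.05. All 5 inducible genes had a window. Only Psmb8 among them held the gamma-activated site, and only Psme1 the interferon-stimulated core, so Psmb9 and Psmb10 held neither. CCAAT was in 35.1% against 37.4%, the GC box GGGCGG in 54.1% against 49.2%, and the E box CACGTG in 8.11% against 8.24%. CCGGAAG and AAGATGGCG can overlap by shared letters, as can TTCNNNGAA and GAAANNGAA. A match is only a run of letters in the window and not a measured binding site.

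**Figure D2:**
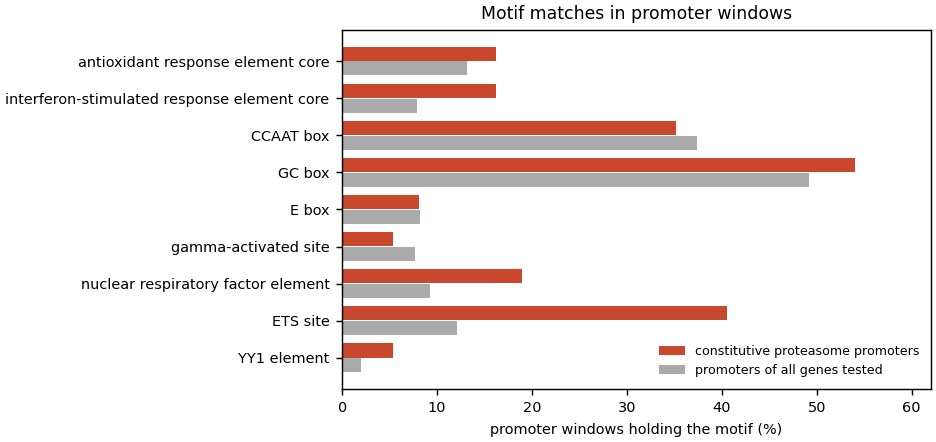
Percent of promoter windows that hold each of 9 motifs on either strand (x axis) for the 37 windows of constitutive proteasome genes and for all 19177 windows of genes tested. The ETS motif has the widest gap between the bars, at 40.5% against 12.1%, while the antioxidant response element core differs little, at 16.2% against 13.2%.

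The 250 bases before the start are shown for 5 members, 5′ to 3′ on the strand of the gene, and for the inducible Psmb8. Psmb5 (chr14:54617996-54618245, minus strand) and Psmb6 (chr11:70525107-70525356, plus strand) are shown as constitutive active subunits whose levels differed little, Psmb8 (chr17:34197945-34198194, plus strand) as the inducible counterpart of Psmb5, and Psmc6 (chr14:45329574-45329823, plus strand), Psmd12 (chr11:107479278-107479527, plus strand) and Psme4 (chr11:30771525-30771774, plus strand) as members with estimates toward either end of the range. Capitals mark the antioxidant response element core in Psmb5, Psmb6, Psmc6 and Psmd12, the ETS motif in Psmc6, Psmd12 and Psme4, and the gamma-activated site in Psmb8, each on the strand printed or its reverse complement. The antioxidant response element core counted for Psme4 is not marked, since it does not lie wholly within the 250 bases shown.
Psmb5: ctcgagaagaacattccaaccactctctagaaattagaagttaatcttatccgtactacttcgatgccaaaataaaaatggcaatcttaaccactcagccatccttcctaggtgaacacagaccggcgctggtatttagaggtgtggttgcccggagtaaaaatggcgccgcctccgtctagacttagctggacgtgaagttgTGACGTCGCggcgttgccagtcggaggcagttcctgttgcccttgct
Psmb6: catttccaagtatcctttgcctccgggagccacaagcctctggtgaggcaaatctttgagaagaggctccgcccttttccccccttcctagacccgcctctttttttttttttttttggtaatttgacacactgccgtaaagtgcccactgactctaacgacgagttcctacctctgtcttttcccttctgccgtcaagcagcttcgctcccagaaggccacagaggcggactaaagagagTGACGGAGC
Psmb8: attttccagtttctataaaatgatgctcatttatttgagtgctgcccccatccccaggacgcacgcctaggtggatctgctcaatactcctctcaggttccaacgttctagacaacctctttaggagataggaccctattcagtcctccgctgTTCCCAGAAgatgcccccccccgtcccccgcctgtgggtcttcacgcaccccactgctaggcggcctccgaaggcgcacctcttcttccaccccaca
Psmc6: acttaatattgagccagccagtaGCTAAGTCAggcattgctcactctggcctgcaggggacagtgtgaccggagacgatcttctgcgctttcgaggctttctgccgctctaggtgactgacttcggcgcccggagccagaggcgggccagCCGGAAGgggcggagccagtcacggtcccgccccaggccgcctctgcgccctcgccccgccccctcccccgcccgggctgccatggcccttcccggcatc
Psmd12: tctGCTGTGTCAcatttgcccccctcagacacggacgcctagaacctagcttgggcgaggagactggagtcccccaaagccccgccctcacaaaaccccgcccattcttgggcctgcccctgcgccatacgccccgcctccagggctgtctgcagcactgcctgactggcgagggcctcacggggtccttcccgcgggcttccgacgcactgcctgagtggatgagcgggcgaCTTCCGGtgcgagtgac
Psme4: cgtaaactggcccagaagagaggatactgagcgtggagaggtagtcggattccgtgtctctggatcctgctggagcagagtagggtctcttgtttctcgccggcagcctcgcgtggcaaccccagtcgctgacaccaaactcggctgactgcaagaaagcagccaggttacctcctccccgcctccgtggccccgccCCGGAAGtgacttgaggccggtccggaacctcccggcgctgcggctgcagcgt
The antioxidant response element core lies 47 to 39 bases before the start in Psmb5 and directly before it, at 9 to 1 bases, in Psmb6. In Psmc6 and Psmd12 it lies farther out, at 227 to 219 and 247 to 239 bases, with the ETS motif at 100 to 94 and 17 to 11 bases. In Psme4 the ETS motif lies 53 to 47 bases before the start. The gamma-activated site of Psmb8, which the other inducible genes lack, lies at 97 to 89 bases. Psmd12 (-0.23) and Psme4 (0.31) both held the ETS motif, but they were shown for estimates toward either end of the range. Their opposite signs follow from that choice and say nothing about the motif.

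The 20S core held 14 members, none of which passed the test. In the alpha ring, whose subunits gate the barrel, the median log2 fold change of 7 members was 0.07, from -0.10 (Psma3) to 0.19 (Psma4). Psma1 was at 10.37, 10.32 and 10.43 with siControl and at 10.50, 10.47 and 10.57 with siRetSat. All 3 siRetSat arrays lay above all 3 siControl arrays, with a difference of 0.14 (SE 0.0836) and a limma adjusted p of 0.550. Psma4 was at 9.47, 9.53 and 9.59 against 9.52, 9.82 and 9.82. Here the first siRetSat array lay among the controls and the other two above them (0.19, adjusted p = 0.517 by limma).

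The 3 constitutive catalytic subunits had the smallest median of the roles in the core, 0.02. Psmb6, which carries the caspase-like site, was at 10.64, 10.39 and 10.55 with siControl and at 10.60, 10.65 and 10.59 with siRetSat. Its groups overlapped (difference 0.09, 95% interval -0.13 to 0.30). Psmb7, the trypsin-like subunit, was at 10.83, 10.77 and 10.81 against 10.79, 10.82 and 10.86, which also overlapped (0.02, interval -0.16 to 0.20). Psmb5, the chymotrypsin-like subunit and the main target of the drug bortezomib, was at 10.26, 9.70 and 9.88 against 10.01, 9.97 and 9.90. The siControl arrays of Psmb5 spanned the siRetSat arrays on both sides, and its interval was the widest in the core (0.01, -0.31 to 0.34).

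Among the 4 beta subunits without an active site the median was 0.13. Psmb3 was at 9.95, 9.58 and 9.92 with siControl and at 10.09, 9.97 and 10.07 with siRetSat. The groups did not overlap, but the second siControl array lay well below the others, and the difference of 0.23 (SE 0.117) had a limma adjusted p of 0.453. Psmb1 differed by 0.16 (adjusted p = 0.585) and Psmb2, the lowest of these, by -0.07. The 2 tissue-restricted subunits, Psma8 of the testis and Psmb11 of the thymic cortex, were the only dim members, at siControl means of 3.87 and 4.12, with differences of 0.09 and 0.06.

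The 19S particle held 17 members, with a median of -0.03 where that of the core was 0.08. Estimates were above 0 for 11 of 14 core members and for 8 of 17 members of the 19S particle. These medians moved with single arrays. Without siControl 2 the core median was 0.03, and without siRetSat 1 that of the 19S particle was 0.02. Of the 6 ATPases, which form the ring that threads substrates into the core, Psmc1 was highest (0.10) and Psmc6 lowest. Psmc6 was at 10.04, 10.25 and 10.29 with siControl and at 9.72, 10.01 and 10.12 with siRetSat. Its groups overlapped, since the third siRetSat array lay above the first siControl array (-0.24, SE 0.126, limma adjusted p = 0.459). The non-ATPase subunits of the base bind ubiquitin and shuttle factors, and ranged from Psmd1 to Psmd2 (0.02). Psmd1 was at 10.49, 10.41 and 10.40 against 10.39, 10.31 and 10.32. All its siRetSat values lay narrowly below its siControl values, and the difference of -0.09 did not pass (limma adjusted p = 0.754).

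In the lid the median of 8 members was -0.01, from Psmd12 to Psmd11 (0.09). Psmd12, a scaffold subunit of the lid, was at 9.82, 9.85 and 9.83 with siControl and at 9.56, 9.62 and 9.62 with siRetSat. The 2 groups stood clearly apart because both were tight, with SDs of 0.015 and 0.035. The difference was -0.23 (SE 0.0794, or -14.9% on the linear scale, 95% interval -0.42 to -0.05) with an unadjusted p of 0.0183 and an adjusted p of 0.200 by limma. Its estimate stayed between -0.24 and -0.21 when any 1 array was left out, and it passed in 0 of those 6 fits. limma moderates each gene's variance towards the average of all genes, with prior degrees of freedom of 4.16 beside 4 of its own, so the SE of Psmd12 exceeds what its own arrays alone give.

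The assembly chaperones, which build the rings and the base but are absent from the finished particle, held the largest estimate. Psmg4 was at 5.36, 5.16 and 5.52 with siControl and at 5.68, 5.82 and 5.76 with siRetSat. Every siRetSat array lay above every siControl array, and the difference of 0.41 (SE 0.110, 1.33-fold) had an unadjusted p of 0.0060 and an adjusted p of 0.104 by limma. Psmg3, its partner in a chaperone pair that acts on the alpha ring, was at 5.66, 5.50 and 5.65 against 5.81, 5.98 and 5.64. The third siRetSat array of Psmg3 lay inside the control range (0.21, adjusted p = 0.476). Psmg1 and Psmg2, the other chaperone pair of the alpha ring, differed by 0.07 and -0.07. Psmd10, or gankyrin, a chaperone of the base, was at 9.69, 9.58 and 9.65 against 9.75, 9.84 and 9.96. Its groups did not overlap, and the difference was 0.21 (SE 0.0916, adjusted p = 0.346 by limma). Psmd9, another base chaperone, had the lowest estimate of these 7 genes (-0.11).

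Of the alternative caps and the inhibitor, Psme4 had the highest estimate. Psme4 encodes a large ATP-independent activator of the core, known for histone turnover in the testis and after DNA damage. It was at 9.53, 9.73 and 9.61 with siControl and at 9.78, 10.00 and 10.02 with siRetSat, without overlap. The difference of 0.31 (SE 0.103, 95% interval 0.07 to 0.55) had an adjusted p of 0.190 by limma. Psme3, the nuclear activator, was at 9.33, 9.45 and 9.38 against 9.15, 9.31 and 9.28, also without overlap (-0.14, adjusted p = 0.590). Psmf1, an inhibitor of the core, differed by -0.10.

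**Figure D3:**
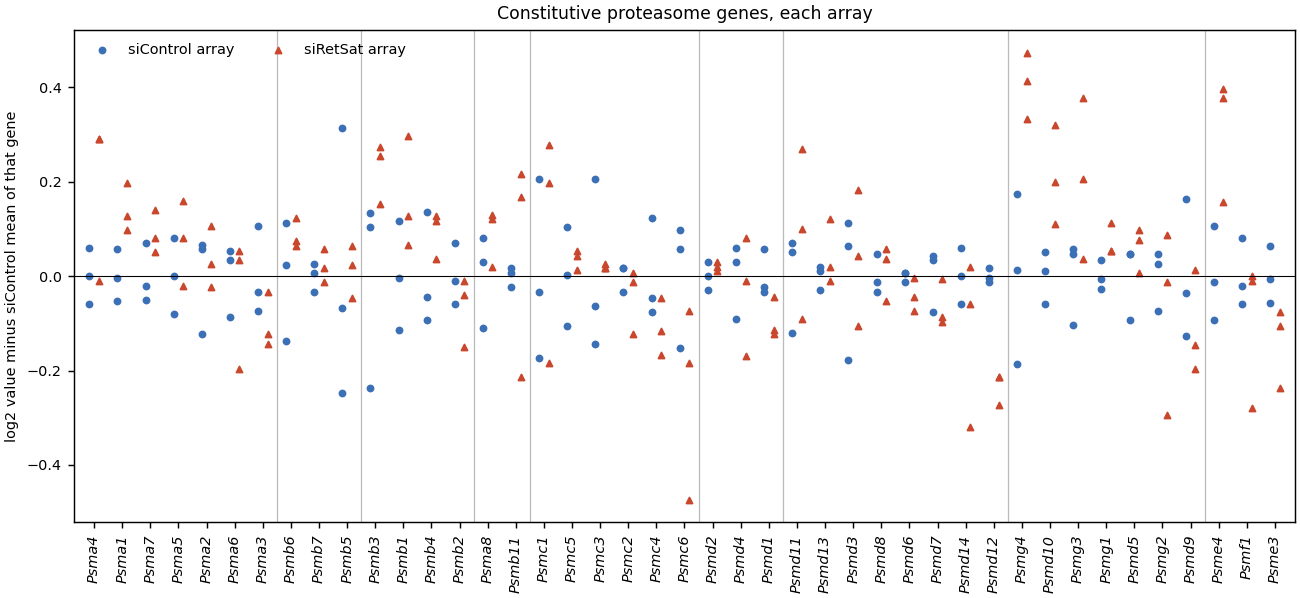
Log2 value of each member on each array minus that gene's siControl mean (y axis), ordered by role and then by estimate, with circles for siControl and triangles for siRetSat. Only Psmg4, Psme4, Psmd12 and 6 other members have groups that do not overlap, and the siRetSat 1 triangle of Psmc6 is the point farthest below 0.

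The groups did not overlap for 6 members on the higher side (Psma1, Psmb3, Psmd10, Psme4, Psmg1 and Psmg4), beside 9.33% of all genes. On the lower side they did not overlap for 3 members (Psmd1, Psmd12 and Psme3), beside 10.1%. Over the genes that were not dim these shares were 12.6% and 15.6%. After centring each array on its median the counts were 0 higher, beside 6.80% of all genes, and 2 lower, beside 7.85%. After repeated quantile normalization they were 9 higher, beside 10.8% of all genes, and 3 lower, beside 11.1%. The lowest values of the members fell mostly on siControl 2 and siRetSat 1. siControl 2 was the lowest of the 6 arrays for 17 members (39.5%) and for 12.6% of the genes that were not dim. Of those 17, 10 were core subunits, where the core held 14 of the 43 members. siRetSat 1 was the lowest for 15 members (34.9%), a share close to the 30.6% of the genes that were not dim. Of those 15, 9 belonged to the 19S particle, which held 17 of the 43 members. The highest value fell most often on siRetSat 3, for 13 members (30.2%) and for 18.8% of the genes that were not dim. The median deviation of the members from the siControl mean was nevertheless small on every array, from -0.03 on siControl 2 to 0.04 on siRetSat 3.

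The 5 members with more than 1 probe set were compared between them. The 3 probe sets of Psma3 differed by -0.07, -0.12 and -0.10, and both probe sets of Psma5 (0.07 and 0.12), Psmb3 (0.23 and 0.18) and Psmc1 (0.10 and 0.12) had the same sign. The 2 probe sets of Psmd2 disagreed in sign, at 0.02 for the brighter and -0.08 for the other. Probe sets for these abundant genes may share sequence with processed copies elsewhere in the genome, and the sources used here do not say how the authors' probe mapping treated such copies.

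The inducible subunits, which take the place of Psmb6, Psmb7 and Psmb5 in the immunoproteasome, differed in the same cells. Psmb8 was at 8.25, 7.99 and 8.19 with siControl and at 9.20, 8.95 and 9.04 with siRetSat, and rose by 0.92 (limma adjusted p = 0.00407). Psmb9 was at 7.14, 7.05 and 7.07 against 8.04, 7.85 and 8.13, and rose by 0.92 (adjusted p = 0.00296 by limma). Psmb10 was at 8.02, 7.55 and 7.75 against 8.41, 8.48 and 8.53, and rose by 0.70 (adjusted p = 0.0232). In all 3 the groups were apart. Psmb8 and Psmb9 passed in each of the 6 fits that left out 1 array, and Psmb10 in 2 of them. The call of Psmb10 was lost without siControl 2, siControl 3, siRetSat 2 or siRetSat 3, and with background subtraction. By the methods' t-test Psmb9 alone of the 3 passed after adjustment. Psme1 (0.30, adjusted p = 0.110) and Psme2 (0.33, adjusted p = 0.149), the subunits of the interferon-inducible cap, did not pass.

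Each inducible subunit was set against the constitutive subunit of the same active site within each array. The inducible change exceeded the constitutive one by 0.83 (SE 0.113) for Psmb9 over Psmb6, by 0.68 (SE 0.120) for Psmb10 over Psmb7 and by 0.91 (SE 0.121) for Psmb8 over Psmb5. The differences within an array did not overlap between the groups in any of the 3 pairs. The exact two-sided permutation test gave p = 0.1 for each pair, the smallest p that 3 against 3 arrays allow, and 0.1 after adjustment over the 3 pairs. The log2 of the summed level of the 14 macrophage markers ran from 11.3 to 11.4 across the siControl arrays and from 11.7 to 11.8 across the siRetSat arrays. That sum is mostly Cd68. Over the list 7 differences were above 0, 6 below and 1 at 0, with a median of 0.03. The Kupffer cell markers Adgre1, Vsig4 and Timd4 were dim (0.09, -0.06 and -0.05). Clec4f, another Kupffer cell marker, and C1qa lay just above the dim cut. They differed by 0.24 and 0.21 (limma adjusted p = 0.497 and 0.485). Of 5 bile duct markers Sox9 rose by 0.45 (limma adjusted p = 0.0324, a call kept without siRetSat 1 and lost without any other array). The other 4 did not pass, with a median of -0.07 over the list. Among them Epcam differed by 0.36 without overlap (limma adjusted p = 0.129) and was higher at the study's cutoffs. Krt19, Krt7 and Cftr were below 0 (-0.20, -0.21 and -0.07). The part of such cells in the rise was not tested.

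**Figure D4:**
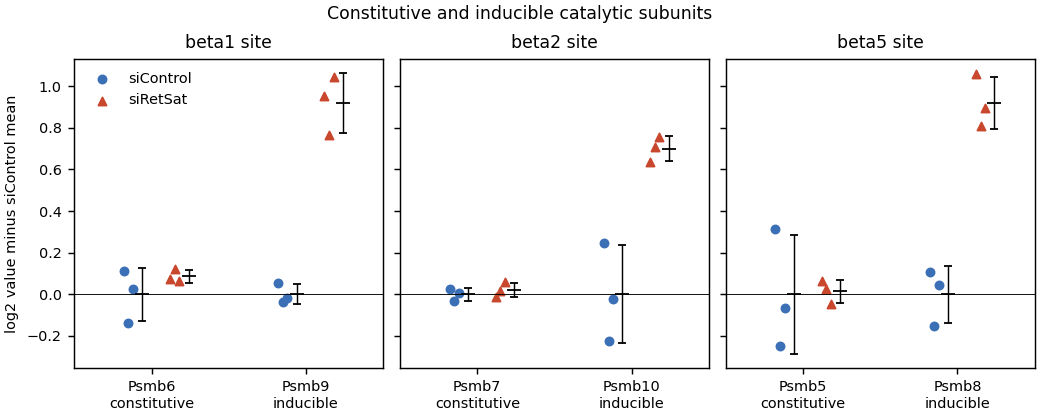
Log2 value minus that gene's siControl mean (y axis) for the constitutive and inducible subunit of each active site, with circles for siControl arrays, triangles for siRetSat arrays and bars for mean ± SD (n = 3). The siRetSat arrays of the 3 inducible genes lie above their control arrays, while those of Psmb6, Psmb7 and Psmb5 overlap theirs.

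Other genes of the pathway were described from lists written for the role of their products. Of 14 proteasome-bound and maturation factors 12 were measured, and limma called 0 of them. At an unadjusted p under 0.05 there were 4, beside 14.5% of all genes. The methods' t-test, median centring, the mean of probe sets and each fit without 1 array also called 0. Other fits called some of them, given here with the share of all genes called in the same fit. Array weights called 5 (Sem1, Usp14, Ube3c, Fbxo7 and Zfand5), beside 14.6%. Ube3c, Fbxo7 and Zfand5 were called with a variance trend (5.41%) and without dim genes (8.06% of the genes kept). Fbxo7 and Zfand5 were called with the replicate block (7.73%) and after repeated quantile normalization (4.62%). Background subtraction called Ube3c (2.23%), and the fit without both arrays numbered 1 called Zfand5 (4.12%). The smallest p was that of Fbxo7, a ubiquitin ligase adaptor that binds the inhibitor Psmf1, with a difference of 0.44 (limma adjusted p = 0.056). The largest difference was that of Zfand5, a proteasome-binding zinc finger protein, at -0.51 (limma adjusted p = 0.065). Of 12 shuttle factors and cofactors of the segregase p97, 11 were measured. None passed in limma, with 5 at an unadjusted p under 0.05, beside 14.5% of all genes. Nploc4 passed on the lower side by the methods' t-test, after background subtraction and without dim genes, Faf2 after repeated quantile normalization, both with the replicate block or a variance trend, and both with Ufd1 under array weights. Faf2 also passed without both arrays numbered 1. The shares of all genes called in these fits are given above. None passed in a fit without 1 array, with median centring or with the mean of probe sets. The estimates were below 0 for 10 of these 11 genes, with a median of -0.20 beside 0.00 over all genes. In 9 of them all siRetSat arrays lay below the siControl arrays, as in 10.1% of all genes and 15.6% of the genes that were not dim. Nploc4, a p97 cofactor, had the smallest p. It was at 9.68, 9.74 and 9.66 with siControl and at 9.31, 9.37 and 9.36 with siRetSat (-0.35, adjusted p = 0.061 by limma).

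Of the 7 genes listed for the NRF1 pathway 6 were measured and 1 passed. Nfe2l2, which encodes NRF2, was at 10.26, 10.63 and 10.41 with siControl and at 9.77, 9.94 and 9.89 with siRetSat, and fell by 0.57 on the log2 scale (SE 0.114, limma adjusted p = 0.0363). The call held in 1 of the 6 fits with 1 array left out, that without siControl 1. It was also lost with median centring, with background subtraction and by the methods' t-test. Nfe2l1, which encodes NRF1, was at 8.64, 8.90 and 8.93 against 8.55, 8.68 and 8.60, with overlap (-0.21, adjusted p = 0.423). Of the 6 ubiquitin genes and activating enzymes listed only Uba6 was measured (-0.34, adjusted p = 0.319). The other genes of these lists were not analysed here.

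**Figure D5:**
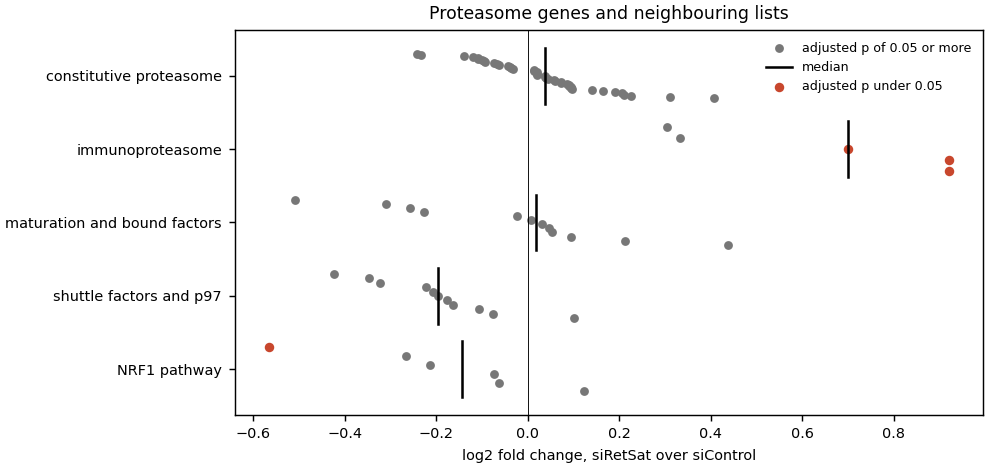
Log2 fold change (x axis) of each gene in the constitutive proteasome list and in 4 lists of related genes, with black bars for medians and red points for genes past an adjusted p of 0.05 in limma. The constitutive genes centre on 0.04 with none called, the immunoproteasome genes all lie above 0 with 3 called, and the shuttle factors and p97 cofactors centre on -0.20 with none called.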

How the data were processed

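Gene expression was measured on 3 arrays of siControl and 3 of siRetSat transfections. The values deposited by the authors are normalized log2 intensities of 35556 probe sets, made with RMA and Partek 6.6 according to the submitters' processing notes. RMA normalizes by quantiles, so differences are relative to the bulk of genes. The annotation version and filters were not given in the sources used here, and all 6 arrays were used. The log2 values ran from 1.46 to 13.7, with array medians of 4.29 to 4.50, and the number of arrays limits the precision.

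Probe sets with 1 symbol in GEO's platform annotation (21789, beside 1621 with several and 12146 with none) were kept, symbols were updated through RefSeq's table for GRCm38.p6, and the probe set with the highest mean stood for each of 19938 genes. siRetSat was compared with siControl in limma 3.58.1 under R 4.3.3 (functions lmFit and eBayes, without covariates). P-values were adjusted by Benjamini and Hochberg's method over every gene, and 0.05 was the threshold. The step was tested on simulated data. Genes named in the text are Psma1, Psmd1, the 10 members with the smallest p, the catalytic and tissue-restricted subunits, the extremes of each role, the 5 inducible genes, and in each pathway list the genes called and the one with the smallest p. Others (Psmg1, Psmg2, Psmf1, Psma5, Nfe2l1 and the markers) were named with their values in view. The members, the lists and the motifs were chosen with earlier results of these data known.

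Other settings were array weights, the mean of probe sets, median centring, repeated quantile normalization, background subtraction, removal of dim genes, a variance trend, a replicate block, the methods' t-test and fits without 1 array. Fits without both arrays of 1 number were chosen after seeing the data. Exact permutation tests used Python 3.11.15 and scipy 1.17.1. Plots used matplotlib 3.10.9.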

Additional observations from a re-analysis of the deposited data

How the results depend on the processing

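No constitutive proteasome gene passed in the fits without 1 array, without dim genes, with median centring, with repeated quantile normalization, with the mean of probe sets or with the replicate block. With array weights 1457 genes passed on the higher and 1448 on the lower side, among them 5 and 1 members, and 2 members were higher at the cutoffs of the study. Background subtraction gave 222 genes on the higher side and 1 member lower, median centring gave 188 and 154 genes and 0 members whose groups did not overlap on the higher side, and the methods' t-test gave 100 and 96 genes and 1 member lower. A variance trend gave 543 genes lower and 1 member lower, and repeated quantile normalization gave 2 members higher at the study's cutoffs. The replicate block gave 736 and 805 genes and 0 members. The deviations of same-numbered arrays correlated at 0.547, 0.0398 and 0.541. The arrays numbered 1 correlated best with each other, as did those numbered 3, while siControl 2 and siRetSat 2 did not. The labels give only a number, and what same-numbered arrays share was not tested. With both arrays numbered 1 left out, 2 members were higher at the study's cutoffs, and the groups of 19 did not overlap on the higher side (22.6% of all genes) and of 9 on the lower (23.6%). With both numbered 2 left out, 10 and 5 genes passed, 0 members were higher at the study's cutoffs, the members' median was -0.01 and the groups of 6 did not overlap on the lower side (15.7% of all genes). With both numbered 3 left out, 71 and 40 genes passed and the groups of 6 members did not overlap on the lower side (17.9% of all genes). Leaving out 1 array gave 119 to 402 genes higher and 88 to 248 lower, 1 to 2 members higher and 0 to 1 lower at the study's cutoffs, and 7 to 12 members without overlap on the higher (at least 12.1% of all genes in each, and 15.1% where it was 12) and 3 to 7 on the lower side (at least 12.5%, and 16.6% where it was 7). Fewer arrays leave more genes without overlap by construction. For the study's cutoffs the share of all genes is given here only for the first limma fit, 4.47% higher and 4.58% lower. The members' counts at those cutoffs in the other fits cannot be set beside such a share. The lowest counts of genes came without siControl 2, and the single member lower at the study's cutoffs, Psmc6, came without siRetSat 3. Of the values of single genes under the alternatives, 606 kept their direction and side of the threshold or moved less than the spread, 41 passed where they had not, 62 no longer passed and 9 uncalled values moved by more than the spread. The cause of these differences was not tested. Signal limits Psma8 and Psmb11, which were dim.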

Other observations

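A probe set assigned to both Psme2b and Psme2 was left out of the tests because it carries 2 symbols. Its mean was 8.06 with siControl and 8.39 with siRetSat, a difference of 0.33 that equals that of the single-symbol probe set of Psme2 to 2 decimals. Psmc3ip and Psme3ip1, whose symbols contain those of proteasome genes but whose products are not subunits, were not counted as members. Psmc3ip was at 3.64, 3.63 and 3.69 with siControl and at 3.84, 3.91 and 3.78 with siRetSat, without overlap (0.19, limma adjusted p = 0.349), and was dim. Psme3ip1 differed by -0.04 (limma adjusted p = 0.927).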
